A study of Oryzias latipes with 48 samples.

Results

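The genes described here are 44 medaka genes chosen for a wide fitted 24-h curve in summer and in autumn, with the fitted summer peak in the early hours of the day. These genes had a mean of at least 1 FPKM over all libraries, spring and winter included. From the summer and autumn values they had an amplitude of at least 0.35 in both seasons. The fitted summer peak lay from clock hour 0 to before clock hour 6. FPKM counts the fragments of a gene per length of transcript and per size of the library. The amplitude is the distance from the mean to the peak of the fitted curve on the log2(FPKM + 1) scale. The choice did not ask how well the curve fitted. It took from 7.49% to 97.4% of a member's variance in summer and from 14.1% to 97.7% in autumn, so not every member followed its curve. The table holds 26167 genes, of which 16622 had a mean of at least 1 FPKM. The amplitude rule at any peak hour took 312 of them when clock, heat shock and related gene names were not left out. By name, 12 clock-related genes with a summer peak in the same hours were left out, which gave the 44.

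RNA was sequenced from a tissue block with the ventral telencephalon, hypothalamus and pituitary of medaka (Oryzias latipes), a small fish that breeds seasonally. The fish were kept outdoors under natural conditions and were sampled at the spring equinox (Spring), summer solstice (Summer), autumn equinox (Autumn) and winter solstice (Winter). Each season has 6 clock hours (2, 6, 10, 14, 18 and 22) with 2 libraries each, or 48 libraries in 24 groups, and no group carries a genetic change or a drug treatment in the labels. The sources used here give neither the age and sex of the fish nor how many were pooled, and no year or batch per season, so a season cannot be told apart from its batch.

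Vertebrate cells keep daily time with a feedback loop in which clock proteins activate genes for their own repressors. The loop also drives many output genes, among them enzymes, transporters and regulators of RNA that are not part of the clock. In fish, light and temperature can set the loop in the brain and in many other tissues. No sequence of these genes is printed, because the files hold expression values only.

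FPKM values summed to 314605 to 359311 in a library, 23521 to 23943 genes were above 0, and the depth is unknown because only FPKM values were used. On the second principal component 3 libraries stood apart from the other spring libraries, which scored at most 13.9. They were hour 2 library 1, hour 18 library 1 and hour 22 library 2, with scores of 21.1, 29.6 and 24.3, and spring results are also given without them. Summer hour 10 library 2 and summer hour 22 library 1 came near, with scores of 19.6 and 19.1, and were kept. No neuron, radial glia or pituitary marker was at 0 in all libraries. The same held for the markers of every other cell type looked at, so this does not tell tissues apart. In bulk RNA, fewer cells of a type and less RNA per cell cannot be told apart. With 1 day sampled per season, a rhythm and a drift over the sampling cannot be told apart. The labels do not say whether the 2 libraries of a group came from different fish, and the p-values measure how these libraries varied.

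In summer and autumn the median of the 44 genes was high around hours 2 and 6 and low around hours 14 and 18. In spring and winter no single clock hour was the highest or the lowest in most members. In spring 12, 11 and 11 members had their highest hour mean at hours 10, 14 and 18. At hours 2, 6 and 22 it was 3, 5 and 2 members. In winter each hour was the highest in 6 to 9 members. The median member stood 0.43 and 0.42 (log2) above its summer mean in the hour 2 libraries and 0.44 and 0.41 above it in the hour 6 libraries. In the summer hour 14 libraries the median member lay at -0.47 and -0.45. The hour 18 libraries lay at -0.45 and -0.44. Only 1 and 3 members stood above their own summer mean in the hour 14 libraries, against 39 and 41 in the hour 2 libraries. In autumn the median member stood at 0.43 and 0.44 in the hour 6 libraries and at -0.47 and -0.55 in the hour 14 libraries. In winter the median member stayed between -0.03 and 0.05 in the 12 libraries, and in spring between -0.09 and 0.09. These summer and autumn values chose the genes and are a description.

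**Figure D1:**
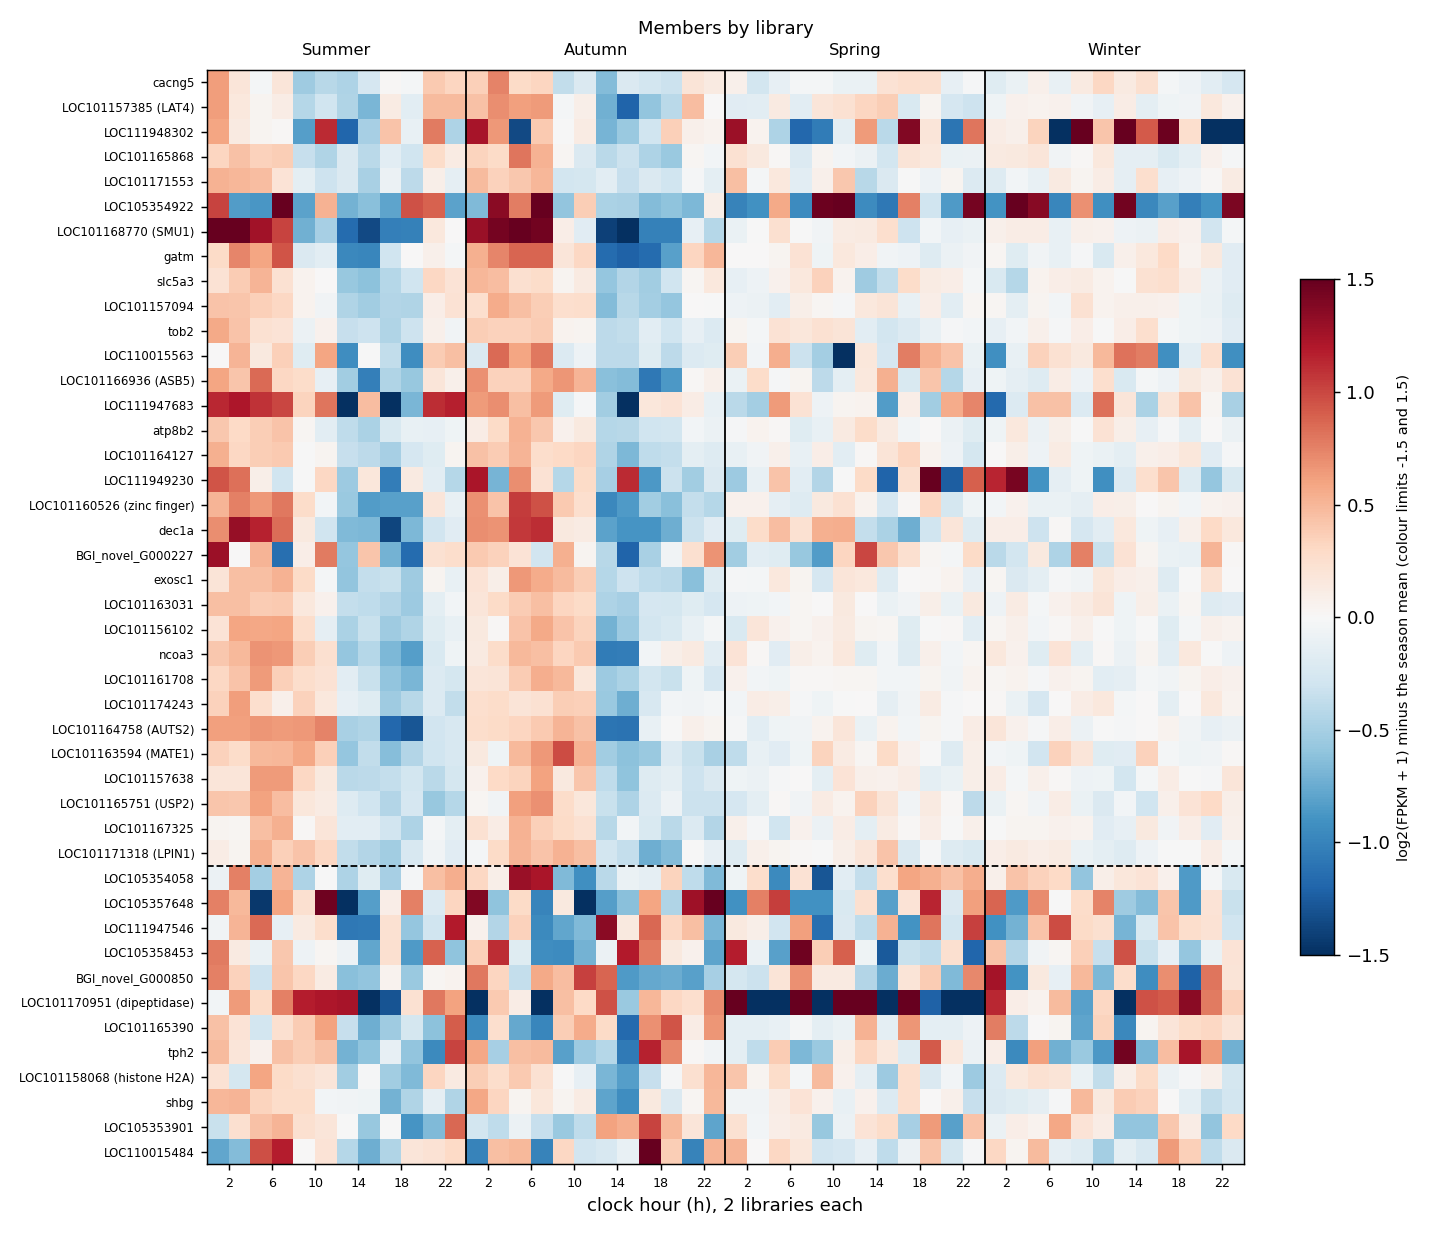
Each row is a member and each column a library, grouped by season and ordered by clock hour, with colour for log2(FPKM + 1) minus the member's mean in that season. Rows above the dashed line are the 32 members whose autumn peak lay within 3 h of the summer peak, and most of them are red at hours 2 and 6 and blue at hour 14 in summer and autumn. Exceptions include LOC111948302 and LOC105354922, whose colours change between the libraries of a pair, and ncoa3 and AUTS2, which are pale at autumn hour 18.

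The members were divided by peak hour after the values were seen. In 32 members the fitted autumn peak lay within 3 h of the summer peak, and 24 of these peaked later in autumn, with a median shift of 0.727 h over the 32. Sampling was every 4 h. The SE of the summer peak hour in these members ran from 0.21 h for ncoa3 to 4.48 h for LOC105354922, and the shift was not tested. The median SD within library pairs of the 32 was 0.126 (log2), close to the 0.125 of all tested genes. The fitted curve took a median of 87.1% of their variance in summer and 83.0% in autumn. In the other 12 members the peaks lay over 3 h apart, and in 6 of them over 6 h. Their median SD within pairs was 0.544, the curve took a median of 31.3% of their variance in summer and 30.7% in autumn, and their median level was 2.40 FPKM against 11.7 FPKM in the 32. The division does not separate tight from wide pairs gene by gene. Among the 32, LOC105354922, LOC111947683, LOC111948302, LOC111949230, BGI_novel_G000227 and LOC110015563 had SDs within pairs of 0.42 to 1.12. Among the 12, the tightest pairs were those of shbg and the histone H2A gene LOC101158068, with SDs within pairs of 0.16 and 0.22.

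**Figure D2:**
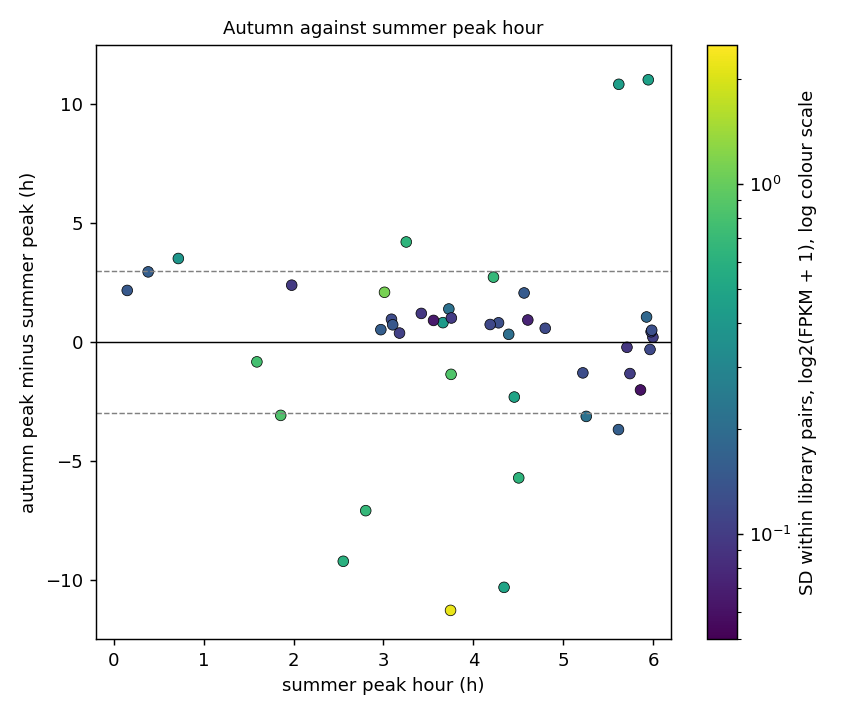
Points are the 44 members, with the summer peak hour on the x axis, the autumn peak minus the summer peak in hours on the y axis, and colour for the SD within library pairs on a log scale. Between the dashed lines at -3 h and 3 h lie 32 members, and the 6 points beyond 6 h all have an SD of at least 0.444, drawn in green or yellow.

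The low values shared their position in the day. All 4 summer libraries of hours 14 and 18 lay below all 8 other summer libraries in 16 members, a pattern that 0.9445% of the tested genes showed. In autumn the same held for 15 members and 1.955% of the tested genes. Both autumn hour 14 libraries lay below the 10 other autumn libraries in 17 members, against 6.239% of the tested genes. These shares rest on the libraries that chose the members and are a description. On the first principal component of all tested genes, the 2 autumn hour 14 libraries scored 29.1 and 29.4 and the other autumn libraries 18.2 to 24.4. In summer the libraries of hours 14 and 18 scored 29.9 to 33.6, and those of hours 2, 6 and 10 scored 24.2 to 26.6. Those of summer hour 22, where the members were not low, scored 31.1 and 30.8. The part of these offsets in the members' low values was not tested.

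Regulators of transcription and RNA held the 3 widest curves, by the smaller of the summer and autumn amplitudes. LOC101168770 encodes SMU1, a WD40 repeat protein of the splicing machinery. It measured 24.25 and 22.82 FPKM at summer hour 2 and 2.45 and 2.02 FPKM at summer hour 14. In autumn it measured 22.84 and 22.01 FPKM at hour 6 and 2.21 and 1.77 FPKM at hour 14. All 24 spring and winter libraries lay near the bottom of that range, from 2.33 to 3.91 FPKM in spring and from 2.59 to 3.74 FPKM in winter. The amplitude was 1.51 (SE 0.10) in summer and 1.54 (SE 0.10) in autumn, or 8.13-fold and 8.51-fold from trough to peak, and 0.14 and 0.04 in spring and winter. In the reference table of gene names this locus overlaps LOC101162427, at 18.95 to 23.72 FPKM in summer and 18.97 to 24.85 in autumn. In spring LOC101162427 measured 23.74 to 30.53 FPKM and in winter 25.44 to 30.73. The SMU1 locus also overlaps LOC105354197, at 0 to 0.76 FPKM in summer, 0 to 0.64 in autumn, 1.31 to 3.27 in spring and 0.66 to 2.23 in winter. In all, 7 members overlap a tested gene, among them MATE1, CTP synthase 1, GPR179 and tph2, described below. The sources do not say whether the counting used strand.

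The gene dec1a encodes a basic helix-loop-helix repressor of the clock loop, and remained a member because its product name is written in another form than those left out. It measured 35.89 and 37.33 FPKM at autumn hour 6 and 8.59 and 9.68 FPKM at autumn hour 18. Its summer values ran from 28.81 and 22.99 FPKM at hour 6 to 4.16 and 7.39 FPKM at hour 18. The amplitude was 1.07 (SE 0.12) in summer and 1.01 (SE 0.05) in autumn. The file holds a pair of members with the same zinc finger protein name, LOC101160526 and LOC101165868. LOC101160526 ran from 28.04 and 26.20 FPKM at autumn hour 6 to 6.16 and 6.81 FPKM at autumn hour 14, and LOC101165868 from 8.47 and 6.79 FPKM to 3.09 and 3.34 FPKM. Their fitted summer peaks were at 4.28 h and 1.98 h, and related copies may share reads.

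The AUTS2 homolog LOC101164758, a nuclear regulator active in neurons, had its low phase at different hours in the 2 warm seasons. In summer it measured 73.04 and 78.32 FPKM at hour 10 and 19.99 and 18.49 FPKM at hour 18. In autumn it measured 112.55 and 107.10 FPKM at hour 10, 36.22 and 36 FPKM at hour 14, and was back at 72.78 and 78.33 FPKM at hour 18. The steroid receptor coactivator ncoa3 had a like pair of shapes. It stood at 9.08 and 9.20 FPKM at autumn hour 14 and at 19.31 and 21.12 FPKM at autumn hour 18, while its summer values at hours 14 and 18 were 9.29 and 10.41 FPKM and 8.61 and 7.68 FPKM. The RNA-binding protein gene LOC101161708 (la-related protein 4) had its lowest values at the same hours, with 3.16 and 2.88 FPKM at summer hour 18 and 5.43 and 5.76 FPKM at autumn hour 14.

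The members also held a pair of genes of RNA turnover. The exosome subunit gene exosc1, part of the complex that degrades RNA from its end, measured 24.12 and 25.24 FPKM at summer hour 6 and 11.15 and 13.31 FPKM at hour 14. The gene tob2, an antiproliferative adaptor that recruits the deadenylation machinery, measured 23.84 and 21.50 FPKM at summer hour 2 and 11.20 and 12.46 FPKM at summer hour 18. In the reference table tob2 is the direct neighbour of the thyrotroph embryonic factor gene LOC101172818, one of the clock-related genes left out, whose summer peak was at 5.30 h and that of tob2 at 3.56 h. No other member lay next to a member or to one of those clock-related genes.

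**Figure D3:**
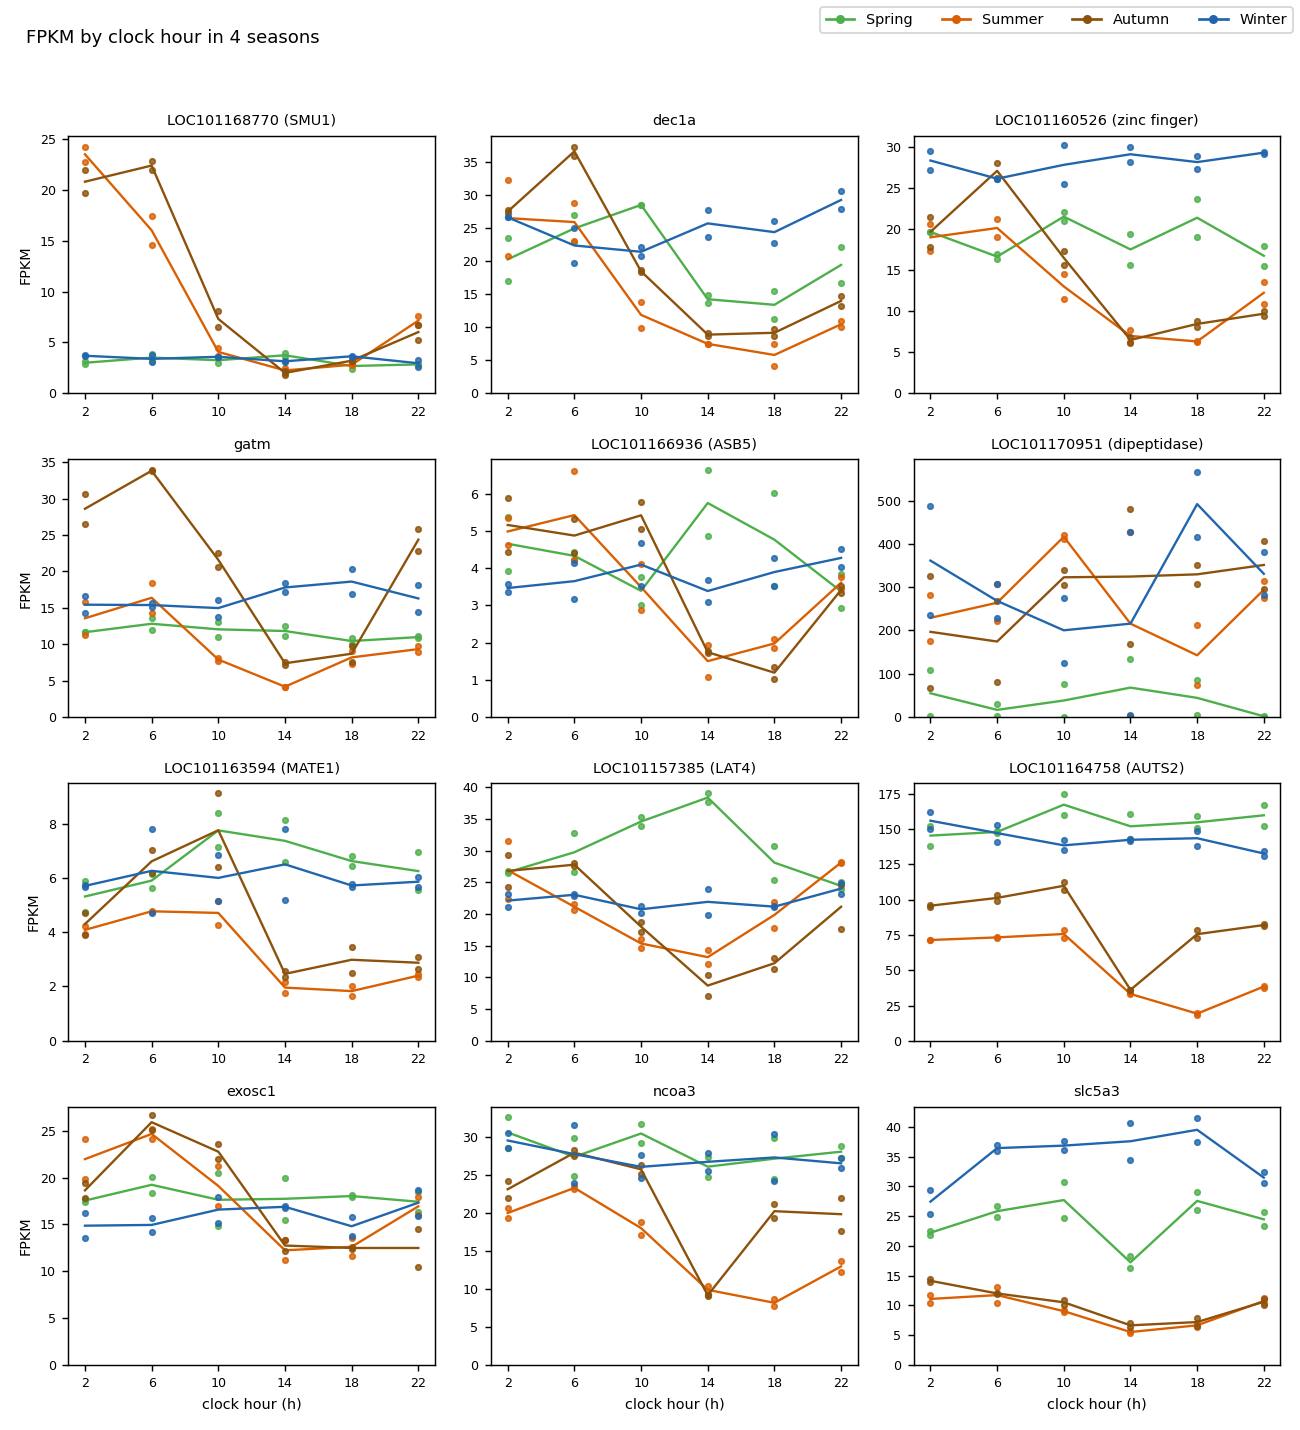
FPKM (y axis) by clock hour (x axis) for 12 named members, with points for libraries and lines through the mean of the 2 libraries of an hour. They have the largest smaller amplitude of summer and autumn among named members with at least 3 FPKM at their highest hour mean. In 11 panels the summer and autumn lines are lower at hours 14 and 18 than at hour 6, though close at hour 18 for LAT4 in summer, spring and winter lines are flatter in most panels, and in the dipeptidase panel (LOC101170951) the points of an hour lie far apart.

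Transporters and channels formed the next group. LOC101157385 encodes LAT4, a carrier of large neutral amino acids, and had the second earliest summer peak of the members, at 0.38 h. It measured 31.44 and 22.38 FPKM at summer hour 2 and 14.32 and 12.06 FPKM at summer hour 14. The autumn peak came later, at 3.33 h, with 10.34 and 7.07 FPKM at hour 14. The earliest summer peak, at 0.15 h, was that of cacng5, an auxiliary subunit of glutamate receptors and calcium channels. It ran from 17.97 and 12.95 FPKM at summer hour 2 to 7.53 and 8.26 FPKM at summer hour 10.

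The sodium and myo-inositol cotransporter gene slc5a3, a carrier that cells use to take up an organic osmolyte, followed a daily curve at a low level in the warm seasons. It measured 10.36 and 11.76 FPKM at summer hour 2 and 5.59 and 5.39 FPKM at summer hour 14. All 24 spring and winter libraries, from 16.21 to 41.54 FPKM, lay above all 24 summer and autumn libraries, which reached 14.34 FPKM. The drug and toxin extrusion carrier MATE1 (LOC101163594) ran from 9.11 and 6.40 FPKM at autumn hour 10 to 2.58 and 2.35 FPKM at autumn hour 14. The lipid flippase gene atp8b2 stayed between 1.36 and 3.56 FPKM in the warm seasons, and anoctamin-8 (LOC101163031), a membrane protein of the anoctamin family, had one of the tightest library pairs, with an SD of 0.07.

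Enzymes of small-molecule metabolism came next. The gene gatm encodes the first enzyme of creatine synthesis. It measured 33.88 and 33.76 FPKM at autumn hour 6 and 7.57 and 7.18 FPKM at autumn hour 14, and 14.29 and 18.45 FPKM against 4.16 and 4.15 FPKM at the same hours of summer. The amplitude was 0.71 (SE 0.13) in summer and 1.06 (SE 0.13) in autumn. CTP synthase 1 (LOC101156102), which makes a building block of RNA and phospholipids, ran from 19.65 and 21.78 FPKM at autumn hour 6 to 8.43 and 9.58 FPKM at autumn hour 14. The phosphatidate phosphatase LPIN1 (LOC101171318), an enzyme of glycerolipid synthesis, had the latest summer peak inside the window, at 5.997 h.

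Diamine acetyltransferase 2 (LOC101167325), of the family that acetylates polyamines and related amines, was the member nearest to the amplitude threshold. It measured 16.22 and 17.15 FPKM at summer hour 6 and 9.29 and 8.11 FPKM at summer hour 18. All 24 spring and winter libraries, from 5.76 to 8.04 FPKM, lay below all 24 summer and autumn libraries, whose lowest value was 8.11 FPKM. Tryptophan hydroxylase 2 (tph2), the enzyme of the first step of serotonin synthesis in neurons, was one of the 12 members without a shared peak. Its autumn values ran from 0.43 to 5.63 FPKM, and the libraries of summer hour 22 measured 0.84 and 6.16 FPKM.

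Receptors, signalling genes and proteolysis genes were few. The melanopsin-A-like opsin gene LOC101157094, from a family of light-sensitive receptors, measured 2.09 and 2.05 FPKM at summer hour 2 and 0.68 and 0.60 FPKM at summer hour 14. The summed FPKM of 10 photoreceptor markers ranged from 1.85 to 18.65 in summer libraries, 1.86 to 17.48 in autumn, 2.06 to 3.58 in spring and 2.60 to 5.11 in winter, with none at 0 in all libraries, and their part in this curve was not tested. The orphan receptor gene LOC101164127 (GPR179), known in the retina of mammals, ran from 7.27 and 6.92 FPKM at autumn hour 2 to 3.43 and 2.81 FPKM at autumn hour 14. The deubiquitinase USP2 (LOC101165751) measured 13.89 and 14.53 FPKM at autumn hour 6 and 6.69 and 6.04 FPKM at autumn hour 14. ASB5 (LOC101166936), a substrate adaptor of a ubiquitin ligase, measured 6.62 and 4.23 FPKM at summer hour 6 and 1.93 and 1.07 FPKM at summer hour 14.

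The gene shbg encodes the plasma carrier of sex steroids and was a member with a shifted peak, 5.61 h in summer and 1.93 h in autumn. It measured 9.36 and 9.44 FPKM at summer hour 2 and 3.49 and 4.36 FPKM at summer hour 18. In autumn it was higher, with 19.85 and 16.41 FPKM at hour 2 and 7.07 and 6.31 FPKM at hour 14. Of the members, 9 carried no informative product name, and among these LOC111947683 had the largest summer amplitude, 1.78 (SE 0.59), with values of 0.00 and 18.28 FPKM in the pair of summer hour 14.

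The amplitude threshold fell among genes of similar size. Just inside lay LOC101167325 (0.35435 in summer), LOC110015484 (0.354625), a G-protein gamma subunit gene, and LOC101165390 (0.356819), a SLC41A2-like gene. Just outside lay LOC100533500 (0.339298 in summer), a cocaine- and amphetamine-regulated transcript gene, frk (0.338974), a tyrosine kinase gene, and LOC101158876 (0.337072 in autumn), a histone H2A-like gene. At the end of the peak window, LPIN1, LOC101167325 and USP2 lay inside at 5.997, 5.98 and 5.98 h. Among the genes just outside were the aspartoacylase gene aspa at 6.24 h and the cystathionine beta-synthase gene LOC101158999 at 6.33 h.

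Spring and winter libraries entered the choice of the genes only through the mean of at least 1 FPKM over all libraries. Their daily curves were not used. The members' median amplitude there was 0.153 in spring and 0.132 in winter, above the 0.0923 and 0.0876 of all tested genes. The medians were 0.119 and 0.111 in the 32 members with a shared warm peak, and 0.265 and 0.282 in the other 12. The amplitude reached 0.35 in 9 members in spring and 7 in winter, against 2.5% and 2.48% of all tested genes. Of these members only dec1a was called rhythmic in the tests below, in spring, and none was called in winter. Except for dec1a, with 0.21, their SDs within library pairs were at least 0.39, against a median of 0.125 in all tested genes. The part of this spread in their amplitudes was not tested. Both cold-season amplitudes lay below both warm-season ones in 36 of the 44 members, which the choice of members on warm amplitudes favours. Of the 32 members with a shared warm peak this held for 28.

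**Figure D4:**
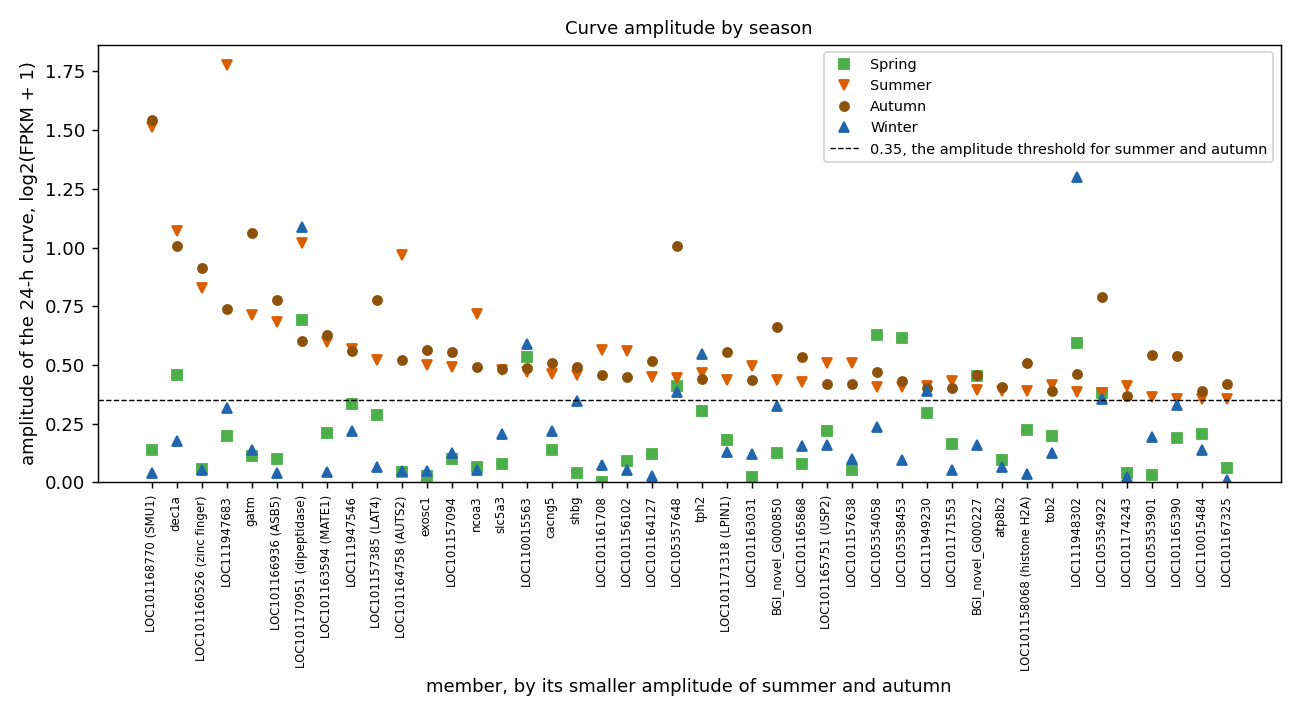
Amplitude of the 24-h curve (y axis, log2(FPKM + 1)) in each season for the 44 members (x axis), ordered by the smaller of the summer and autumn amplitudes, with the threshold of 0.35 as a dashed line. Spring and winter markers reach 0.35 in 9 and 7 members and lie near 0.15 and 0.13 at the median.

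Daily curves in spring and winter were tested with limma on log2(FPKM + 1) over the 16622 genes, with Benjamini-Hochberg adjustment and a call at an adjusted p below 0.05. In spring 3 of the 44 members were called rhythmic, against 1.93% of all tested genes, and 1 member, LAT4, was called without the 3 spring libraries that stood apart. In winter 2 members were called, against 1.22% of all tested genes. The unadjusted p was below 0.05 for 10 members (22.7%) in spring, against 19.3% of all tested genes, and for 12 members (27.3%) in winter, against 16.8%. The 12 clock-related genes left out by name had 5 calls in spring and none in winter, where 4 had an unadjusted p below 0.05.

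LOC101157385 (LAT4) had a daily curve in spring with its peak near midday. Its spring values were 26.40 and 26.76 FPKM at hour 2, 32.84 and 26.63 at hour 6, 33.92 and 35.24 at hour 10, 37.71 and 39.01 at hour 14, 25.43 and 30.77 at hour 18, and 24.98 and 23.87 at hour 22. Both hour 14 libraries lay above the 10 other spring libraries, at the clock hour where the gene was lowest in summer and autumn. The spring amplitude was 0.29 (SE 0.04) with a peak at 11.7 h (adjusted p = 0.00463, limma), and without the 3 spring libraries that stood apart the adjusted p was 0.0256. With the 12 spring libraries fitted alone the call was lost, with an adjusted p of 0.0761. In winter its 12 libraries lay between 19.83 and 24.86 FPKM with an amplitude of 0.06 (adjusted p = 0.659, limma).

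The clock repressor gene dec1a had its fitted spring peak at 6.19 h and its highest spring values at hour 10. The fitted peaks were at 4.39 h in summer and 4.71 h in autumn. Spring values were 27.01 and 22.88 FPKM at hour 6, 28.47 and 28.52 FPKM at hour 10 and 11.21 and 15.53 FPKM at hour 18. The spring amplitude was 0.46 (SE 0.09, adjusted p = 0.0201, limma), under that in summer and autumn by value. In winter dec1a lay between 19.72 and 30.68 FPKM, with an amplitude of 0.18 (adjusted p = 0.455, limma). Without spring hour 6 library 1 or spring hour 18 library 1, its adjusted p in spring was 0.0522 or 0.0675 in limma, and without the 3 spring libraries that stood apart it was 0.0679. With spring fitted alone it was 0.16.

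The adaptor gene tob2 had its fitted spring peak at 6.12 h. Its values were 17.84 and 17.10 FPKM at hour 6, 17.99 and 17.43 FPKM at hour 10, and 13.49 and 12.30 FPKM at hour 14. The spring amplitude was 0.20 (SE 0.04, adjusted p = 0.0242, limma), and without spring hour 6 library 1 or spring hour 18 library 1 the adjusted p was 0.0705 or 0.0552. Without the 3 spring libraries that stood apart it was 0.0962, and with spring fitted alone 0.162.

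In winter the members called were shbg and cacng5, and both peaked near midday. The steroid carrier gene shbg measured 11.46 and 8.78 FPKM at hour 10, 10.52 and 10.28 FPKM at hour 14 and 5.86 and 6.30 FPKM at hour 22. All 4 libraries of hours 10 and 14 lay above the 8 other winter libraries. The amplitude was 0.35 (SE 0.06) with a peak at 11.9 h (adjusted p = 0.0161, limma), and without winter hour 10 library 1 the adjusted p was 0.0719. The channel subunit gene cacng5 ran from 12.03 and 13.75 FPKM at winter hour 10 to 9.70 and 8.98 FPKM at winter hour 22. Its amplitude was 0.22 (SE 0.05) with a peak at 11.6 h (adjusted p = 0.0473, limma). The call for cacng5 was lost without winter hour 10 library 1 (adjusted p = 0.0999, limma), and also without each of 10 other winter libraries. It was lost as well with no filter (0.0702), median-ratio scaling (0.0678), quantile normalization (0.0622) and all 48 libraries (0.0539), and the call for shbg was lost with all 48 libraries (adjusted p = 0.0558, limma). With clock hour as a factor no member was called in winter.

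Several named members came next in order of p without a call. In spring these were USP2 (adjusted p = 0.0689, limma) and LPIN1 (0.0867). In winter they were LOC111948302 (adjusted p = 0.17, limma), tob2 (0.188), anoctamin-8 (0.191) and gatm (0.216). LOC111948302 encodes TMED2, a cargo receptor of the secretory pathway, and was listed at 0 in 3 winter libraries while its highest winter value was 14.09 FPKM.

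The spring and winter curves themselves differed in 4 of the 44 members, against 4.05% of all tested genes, and 11 members (25%) had an unadjusted p below 0.05, the same share as the 25% of all tested genes. The 4 were LAT4 (adjusted p = 0.0148, limma), dec1a (0.0295), USP2 (0.031) and LPIN1 (0.036). The next members with a product name were tob2 (adjusted p = 0.0531, limma) and gatm (0.0673), which were not called. USP2 and LPIN1 were called rhythmic in neither season alone. USP2 measured 9.57 and 8.50 FPKM at spring hour 14 and 7.41 and 5.33 FPKM at spring hour 22. In winter it was lower at hour 14, with 9.19 and 7.48 FPKM, than at hour 22, with 11.85 and 10.12 FPKM. Its fitted peaks were 12.9 h in spring and 22.2 h in winter.

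LPIN1 measured 28.38 and 33.84 FPKM at spring hour 14 and 18.30 and 19.93 FPKM at winter hour 14. Its fitted peaks were 11.3 h in spring and 1.55 h in winter. The spring peaks of LAT4, USP2 and LPIN1 thus lay between 11.3 and 12.9 h, and that of dec1a at 6.19 h. Their summer peaks lay before hour 6, which the choice of members had set. Whether peak hours differ between spring and the warm seasons was not tested, since the warm curves chose the members. Without the 3 spring libraries that stood apart, LAT4 was the only 1 of the 4 still called, with an adjusted p of 0.0521 for dec1a, 0.0958 for USP2 and 0.093 for LPIN1 in limma. LAT4 was also the only 1 of the 4 still called without winter hour 22 library 1. Without either spring hour 14 library or winter hour 14 library 2, USP2 and LPIN1 lost their calls, and without winter hour 22 library 2, dec1a and LPIN1 did. Without winter hour 10 library 1 the difference was called in 1 member, LAT4, and the adjusted p was 0.0575 for dec1a, 0.0539 for USP2 and 0.0727 for LPIN1.

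**Figure D5:**
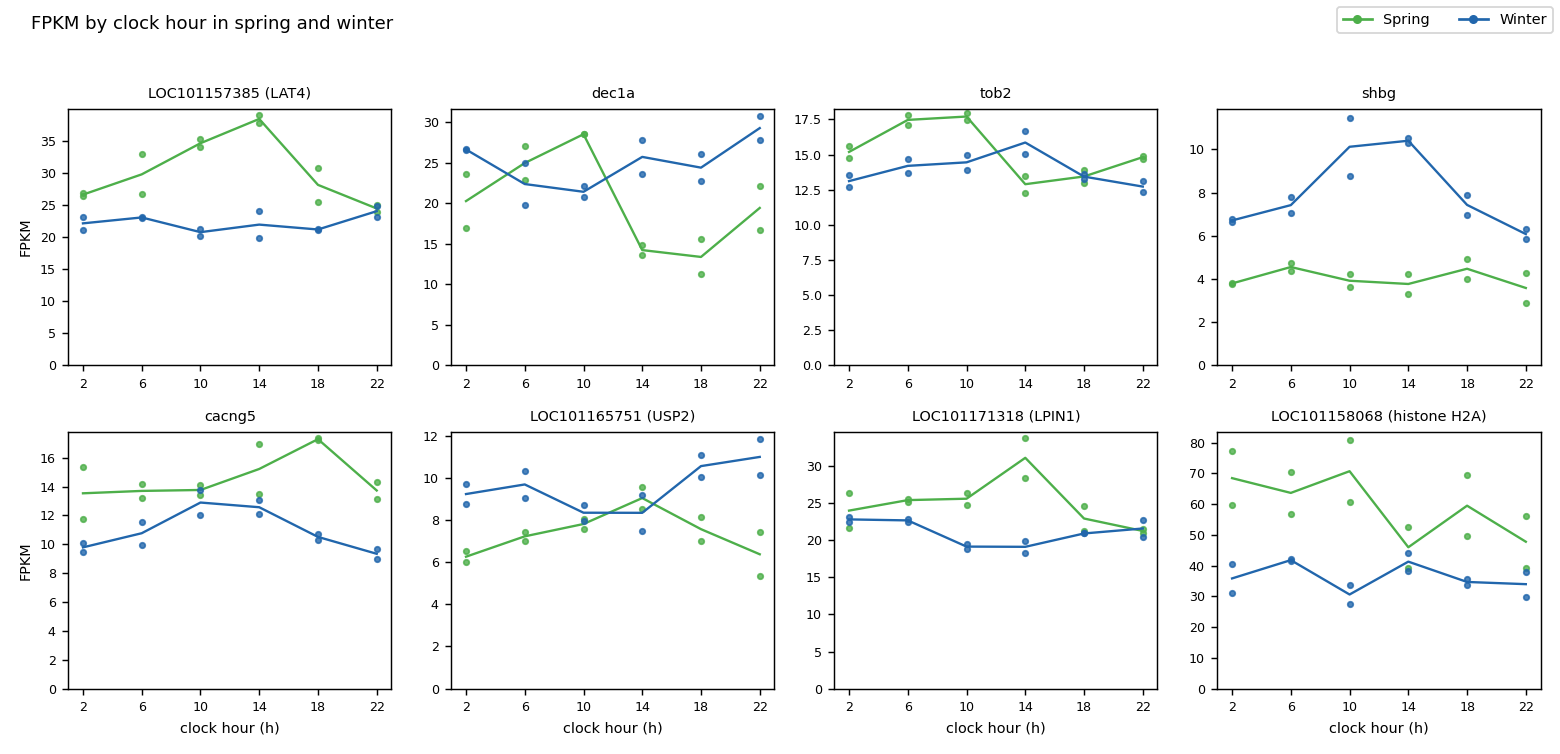
FPKM (y axis) by clock hour (x axis) in spring and winter for the 7 members with a called curve or a called curve difference and for a histone H2A gene, with points for libraries and lines through the mean of the 2 libraries of an hour. LAT4 and LPIN1 are highest at hour 14 in spring, dec1a and tob2 are higher at hour 10 than at hour 14 in spring, and shbg is highest at hours 10 and 14 in winter.

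Season levels were tested between spring and winter in the same limma fit. Of the members, 10 were higher in spring, against 19.7% of all tested genes, and 12 were lower in spring, against 26.0% of all tested genes. The remaining 22 were not called. Cell type markers moved between the same seasons, with 6 of 8 red blood cell markers and 7 of 14 neuron markers lower in spring and 4 of 7 microglia and macrophage markers and 4 of 9 myelin markers higher. Pituitary markers moved both ways, with 4 of 10 higher and 3 lower, as did radial glia markers, with 4 of 10 higher and 2 lower. Of 5 endothelium markers 1 was higher. The summed FPKM of the red blood cell markers ran from 219 to 535 in spring and from 377 to 1232 in winter, none of them was at 0 in all libraries, and the markers' part in the members' levels was not tested. Without the 3 spring libraries that stood apart, 7 were higher and 13 lower. The median member differed by -0.03 on the log2 scale and the median tested gene by -0.02.

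Among members lower in spring, shbg lay between 2.91 and 4.94 FPKM in spring and between 5.86 and 11.46 FPKM in winter, so that the 12 libraries of each season did not overlap. It was 1.78-fold lower in spring (log2 difference -0.83, SE 0.06, adjusted p = 2.93e-09, limma). LOC101160526, the zinc finger gene, lay between 15.53 and 23.70 FPKM in spring and between 25.49 and 30.21 FPKM in winter, again without overlap (log2 difference -0.56, SE 0.06, adjusted p = 3.14e-07). The cotransporter gene slc5a3 lay between 16.21 and 30.68 FPKM in spring and between 25.43 and 41.54 FPKM in winter, and these ranges overlap (log2 difference -0.52, SE 0.08, adjusted p = 3.46e-05). The creatine enzyme gene gatm lay between 9.96 and 13.63 FPKM in spring and between 13.79 and 20.26 FPKM in winter, with no overlap (log2 difference -0.46, SE 0.05, adjusted p = 1.43e-07).

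LOC101165390, the SLC41A2-like gene, was listed at 0 in 6 of the 12 spring libraries and reached 0.74 FPKM in the others, while winter values ran from 0.05 to 2.51 FPKM (log2 difference -0.90, SE 0.15, adjusted p = 5.14e-05, limma). The cytosolic non-specific dipeptidase gene LOC101170951 had the largest difference by value, 20.8-fold lower in spring (log2 difference -4.38, SE 0.89, adjusted p = 0.00046). In each season some of its pairs lay far apart. Spring hour 14 gave 134.41 and 1.26 FPKM, winter hour 14 gave 3.53 and 428.08 FPKM, and summer hour 14 gave 428.74 and 2.81 FPKM. Autumn hour 2 gave 68.05 and 325.72 FPKM, while other pairs were close, as at summer hour 10 with 412.7 and 420.75 FPKM. The SD within its pairs was 2.2 (log2), the highest of the 44 members.

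Among members higher in spring, the histone H2A gene LOC101158068 lay between 39.29 and 80.90 FPKM in spring and between 27.63 and 44.25 FPKM in winter, with overlap (log2 difference 0.67, SE 0.10, adjusted p = 2.86e-05, limma). In summer and autumn the same gene lay between 4.61 and 16.60 FPKM, below all spring and winter libraries, and related histone copies may share reads. LAT4 was 1.34-fold higher in spring (log2 difference 0.42, SE 0.04, adjusted p = 3.38e-07). The receptor subunit gene cacng5 was 1.3-fold higher in spring, with 11.74 to 17.37 FPKM against 8.98 to 13.75 FPKM in winter (log2 difference 0.38, SE 0.05, adjusted p = 2.36e-06). The samkC-like gene LOC105358453 was 1.72-fold higher, with a wide spring range of 4.83 to 37.38 FPKM (log2 difference 0.78, SE 0.25, adjusted p = 0.0143). The uncharacterized gene LOC110015563 had a log2 difference of 0.66 at levels of 0.00 to 4.07 FPKM in spring. Its season means were 2.22 FPKM in spring, 1.01 in summer, 0.38 in autumn and 1.05 in winter. It thus passed the filter of 1 FPKM over all libraries through its spring values, which favours this difference. The same holds for LOC105353901, also called higher in spring, with means of 1.17, 1.32, 1.03 and 0.56 FPKM in that order.

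The level that the cold seasons held relative to the warm daily range differed from gene to gene. In 36 members the median of the spring and winter libraries lay inside the range of the summer and autumn hour means. SMU1 lay 5.73% of the way up that range, tob2 22.9%, dec1a 56.5%, LAT4 81.0% and ncoa3 99.2%. Thus SMU1 in the cold seasons was near its warm trough, and ncoa3 near its warm peak. In 2 members, LOC101167325 and LOC101170951, the cold median lay below the lowest warm hour mean, and in 6 it lay above the highest. In 4 of these 6, AUTS2 (LOC101164758), slc5a3, la-related protein 4 (LOC101161708) and histone H2A (LOC101158068), all 24 cold libraries lay above all 24 warm ones. For AUTS2 the cold libraries ran from 130.87 to 174.63 FPKM and the warm ones from 18.49 to 112.55 FPKM. For la-related protein 4 they ran from 14.15 to 18.13 FPKM and from 2.88 to 12.71 FPKM. The cold median pools spring and winter and may describe neither. For LOC101170951 the median was 3.03 FPKM in spring and 294.6 FPKM in winter. Only the spring one lay below its warm hour means of 142.6 to 416.7 FPKM. For LAT4 it was 28.77 FPKM in spring, above the highest warm hour mean of 28.11 FPKM, and 22.1 FPKM in winter. How many of all tested genes had their cold and warm libraries fully apart was not counted, nor was the position of their cold medians. On the first principal component of all tested genes, cold libraries scored -29.5 to -21.4 and warm ones 18.2 to 33.6. The part of that difference in the members' levels was not tested. These positions compare the seasons whose curves chose the members with those whose curves did not, and are given with no test.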

How the data were processed

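Poly-A selected, strand-specific, paired-end RNA-seq was run on 48 libraries, per the labels' protocols. The authors deposited 1 table of FPKM values. Per the submitters' processing notes, tools included Bowtie2 2.2.5 and RSEM 1.2.12. No source used here names the genome build or annotation, so no coordinates are printed, and a RefSeq gene table served for names and neighbours (42 of the 44 members matched). Members and lists were chosen with earlier results of these data known.

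Tests ran on log2(FPKM + 1), so folds understate changes of genes near or below 1 FPKM. A season mean and a 24-h cosine per season were fitted with limma 3.58.1 in R 4.3.3 (intensity trend) to the 24 spring and winter libraries, with 18 residual degrees of freedom. The 16622 genes with a mean of at least 1 FPKM were tested two-sided with Benjamini-Hochberg adjustment, and a call is an adjusted p below 0.05. The fit was tested on simulated data. Summer and autumn curves were fitted by least squares (Python 3.11.15, numpy 2.4.6). Any member could be named. The fullest values went to the 12 named members with the largest smaller warm amplitude, the smallest p of each test, the largest level differences and genes next to the thresholds, with at least 3 FPKM at their highest hour. LOC101157094, LOC111947683 and LOC110015563 were described after their values were seen. Alternatives were another pseudocount, no filter, 2 scalings, other sets of libraries, clock hour as a factor and each library left out in turn. A planned motif search of promoters was not run, since no promoter sequence was used here. A gene next to the peak-hour threshold is not reported here.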

Additional observations from a re-analysis of the deposited data

Results flagged for a closer look

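The daily curve differed between spring and winter in 4 members, by a test of the difference itself in limma with adjustment over all tested genes. LOC101157385 (LAT4) had an adjusted p of 0.0148, with a spring amplitude of 0.29 and a winter amplitude of 0.06. For dec1a the adjusted p was 0.0295, with amplitudes of 0.46 and 0.18. For LOC101165751 (USP2) it was 0.031, with amplitudes of 0.22 in spring and 0.16 in winter and peaks at 12.9 and 22.2 h. For LOC101171318 (LPIN1) it was 0.036, with amplitudes of 0.18 and 0.13 and peaks at 11.3 and 1.55 h. In the last pair the curves differed more in hour than in size by these values, though neither gene was called rhythmic in spring or in winter.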

How the results depend on the processing

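No paired analysis was possible because the labels give the 2 libraries of a group no number that ties them to libraries of other groups. The 10 higher and 12 lower level calls stayed within 1.5 times of their counts in every alternative run. Leaving out each library in turn gave 8 to 11 higher and 12 to 14 lower. Spring rhythm calls moved from 3 to 0 with the season's 12 libraries fitted alone, to 5 with clock hour as a factor, to 1 without the 3 spring libraries that stand apart (a choice made after seeing the data), and lay between 1 and 4 with single libraries left out. Winter rhythm calls moved from 2 to 1 with no filter, with median-ratio scaling and with quantile normalization, to 0 with all 48 libraries or clock hour as a factor, and lay between 0 and 2 with single libraries left out. Curve differences moved from 4 to 2 with no filter and without those 3 spring libraries, and lay between 1 and 5 with single libraries left out. With no filter dec1a (adjusted p = 0.0501, limma) and LPIN1 (0.0551) lost the call. With all 48 libraries the count stayed at 4, but USP2 (adjusted p = 0.0535, limma) and LPIN1 (0.0702) lost the call and other members gained it. The cause of these moves was not tested. The curve difference of LAT4 was called in every alternative run, and its spring rhythm was lost with spring fitted alone (adjusted p = 0.0761, limma). A pseudocount of 0.1 raised the number of genes that meet the rule from 44 to 106, 42 of them shared, and the 2 scalings gave 48 and 52, all 44 shared. These were chosen after seeing the data.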
